A study of Bos taurus with 22 samples.

Results

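POU5F1 was followed across 22 single cattle blastocysts. The gene was taken as the row ENSBTAG00000021111 of the deposited count table, which is 1 of 27607 rows. The pairing of this identifier with the symbol was given and could not be checked here, because the RefSeq gene table used (assembly ARS-UCD2.0) matched 0 of the 27607 identifiers. All blastocysts came from the same procedure. Oocytes from slaughterhouse ovaries were matured, fertilized with frozen semen and cultured in vitro, and each whole blastocyst gave 1 RNA-sequencing library. The blastocysts were collected within a single short window after fertilization, and only RNA above a set integrity limit was used. The labels name a single group, the blastocyst, with no treatment, time course or control samples, and the dams and sires of the single embryos are not given in the sources used here.

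POU5F1 encodes OCT4, a transcription factor of the POU family that binds DNA through a POU-specific domain and a homeodomain. It acts with partners such as SOX2 to keep the cells of the inner cell mass pluripotent. In cattle, unlike in the mouse, OCT4 is still found in the trophectoderm at the blastocyst stage, so a whole blastocyst holds more than 1 cell type that can contribute its transcripts. A library of a whole blastocyst therefore cannot tell apart fewer cells with the transcript and less transcript per cell. In the RefSeq table, POU5F1 lies between LOC112443864 and TCF19, and 0 genes overlap the span of POU5F1. An overlap would matter because fragments were counted without regard to strand. The counts were made with an Ensembl annotation of ARS-UCD1.2, in which overlap could not be checked here. Markers of the inner cell mass, trophectoderm, hypoblast and cumulus cells could not be looked up without symbols, and their levels were not analysed here.

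The total count ranged from 7999204 to 23884228 per library. Blastocyst 6 had the lowest total, and the next lowest, blastocyst 15, had 16593231 counts. Blastocyst 6 also stood apart in its whole profile. Over genes with a mean of at least 10 CPM (fragments of a gene per 1e6 counts), its mean Spearman correlation with the other 21 libraries was 0.730, whereas it was between 0.876 and 0.933 for the other blastocysts. The mean of POU5F1, its rank, its coefficient of variation and its log2 SD are given with and without this library. Several other results are given only without it together with another blastocyst.

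POU5F1 transcripts were counted in every blastocyst, from 2644 fragments in blastocyst 6 to 14152 in blastocyst 14. The mean transcript abundance was 540.0 ± 97.5 CPM (SD, n = 22), with library sizes scaled by the trimmed mean of M values (TMM). The median was 538.2 CPM. The lowest value was 312.0 CPM in blastocyst 6, and the highest was 736.0 CPM in blastocyst 2, which is a range of 2.36-fold. Of the 22 blastocysts, 18 lay between 450 and 650 CPM, and the lower and upper quartiles were 508.5 and 591.3 CPM. In all libraries together, POU5F1 received 224272 fragments, or 0.0543% of the counts.

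**Figure D1:**
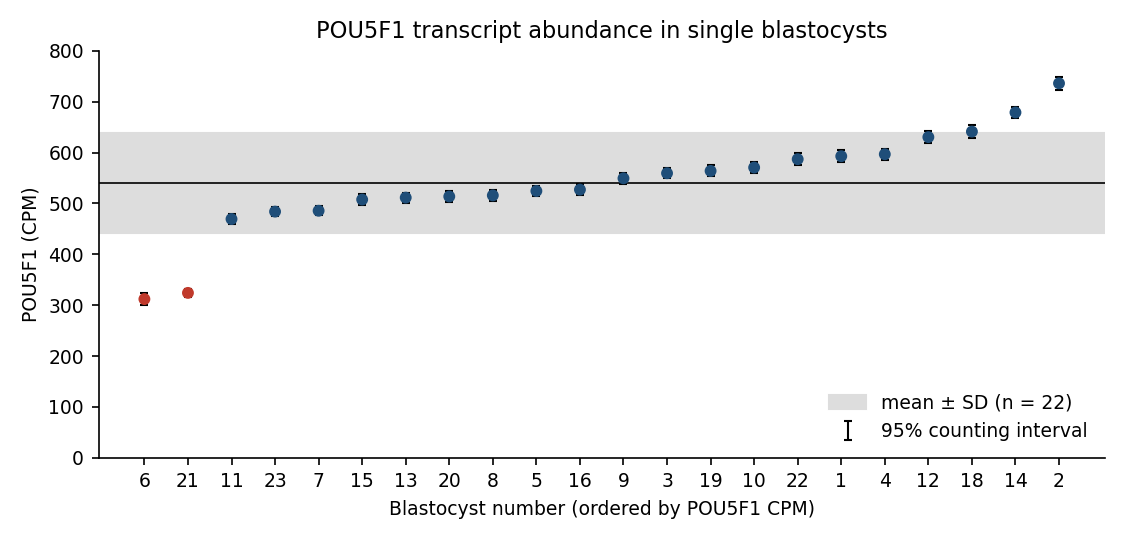
POU5F1 CPM (TMM-scaled) in each of the 22 blastocysts, ordered from the lowest to the highest, with the mean (line), the mean ± SD (grey band, n = 22) and 95% Clopper-Pearson counting intervals (bars); red marks blastocysts 6 and 21. These 2 blastocysts lie at 312.0 and 324.2 CPM, below the next value of 469.3 CPM, and the other values form a gradual series up to 736.0 CPM.

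The values formed a gradual series apart from its lower end. Blastocysts 6 and 21, with 312.0 and 324.2 CPM, were followed by blastocyst 11 with 469.3 CPM. The 95% Clopper-Pearson interval was 300.2 to 324.1 CPM in blastocyst 6 and 316.3 to 332.2 CPM in blastocyst 21. With TMM scaling these 2 intervals overlapped. Neither interval reached that of blastocyst 11, which began at 459.7 CPM. The scaling factor divides the CPM, and with upper quartile scaling it was 0.859 for blastocyst 6 and 1.06 for blastocyst 21. Which of the 2 was lowest, and how far they lay apart, thus depended on the scaling. The upper end was held by blastocyst 14 with 678.7 CPM (interval 667.6 to 690.0) and blastocyst 2 with 736.0 CPM (interval 723.7 to 748.5), and their intervals did not overlap. Of the 21 neighbouring pairs in the order, 15 had overlapping intervals, so these intervals do not set those neighbours apart. Overlap of 2 intervals is not a test of their difference, and none was made. Of all 231 pairs of blastocysts, 201 had separate intervals. Such intervals cover counting error only and take each fragment as a separate draw. Several fragments can stem from the same molecule after amplification, so the intervals can be too narrow and the number of separate pairs too high. With 1 library per blastocyst the technical spread of a repeated library is unknown.

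POU5F1 was among the most counted genes. By mean CPM it ranked 228th of 27607 rows, of which 24486 had any count, so 0.822% of the rows ranked above it. The 227 genes ranked above it received 25.3% of the CPM. Within single blastocysts its rank had a median of 243. It was nearest to the top in blastocyst 14, at rank 137, and farthest from it in blastocyst 21, at rank 522. The rank was 489 in blastocyst 6 and 147 in blastocyst 2. These ranks compare CPM, which are not divided by transcript length, and a gene with longer transcripts can collect more fragments at the same number of molecules. No length was paired with the identifiers, so a rank per length was not computed. The genes next above POU5F1 in mean CPM were ENSBTAG00000018152, with 541.2 ± 163.1 CPM (SD, n = 22), and ENSBTAG00000019147, with 541.8 ± 132.7 CPM (SD, n = 22). Next below were ENSBTAG00000017368, with 539.7 ± 122.3 CPM (SD, n = 22), and ENSBTAG00000018101, with 538.5 ± 91.6 CPM (SD, n = 22). Their means differ from that of POU5F1 by far less than the SD between blastocysts, so the single rank has no more meaning than the range of levels around it.

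The coefficient of variation (CV) of POU5F1 between blastocysts was 18.05%. Counting error alone, with each fragment taken as a separate draw, would give a CV of 1.004%, or 0.310% of the observed variance. Several fragments can stem from the same molecule after amplification, so this share can be too low. The remaining variance holds technical spread as well as differences between blastocysts, which 1 library each cannot separate. On the log2 scale the SD was 0.29, and the biological coefficient of variation, the square root of the dispersion that edgeR estimated for the gene, was 20.8%. Blastocysts 6 and 21 carried much of this spread. Without these 2, chosen after their values were seen, the mean was 562.2 ± 69.2 CPM (SD, n = 20), the CV was 12.3% and the range was 1.57-fold. Without blastocyst 6 alone, the CV was 15.5%.

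For comparison, the 100 genes next above and the 100 next below POU5F1 in mean CPM were taken, with means from 452.1 to 787.7 CPM. Their CV had a median of 19.8%, quartiles of 15.05% and 24.5%, and extremes of 7.90% and 50.6%. POU5F1 was more variable than 80 of these 200 genes (40.0%). With upper quartile scaling of the same 22 libraries, it was more variable than 24% of its 200 genes of similar level. Its range of 2.36-fold lay near the median range of the 200 genes, 2.47-fold, and its log2 SD of 0.29 beside their median of 0.32. When spread was measured as the median absolute deviation over the median, which gives single extreme blastocysts little weight, POU5F1 had 9.42% against a median of 11.1% for the 200 genes. Without blastocysts 6 and 21, its CV of 12.3% was under the lower quartile of the genes of similar level, 12.6%, and above 42 of 200 of them (21%). The place of POU5F1 among genes of like level thus moved with the scaling and with these 2 blastocysts. These percentiles are descriptions, and no test was made of them.

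**Figure D2:**
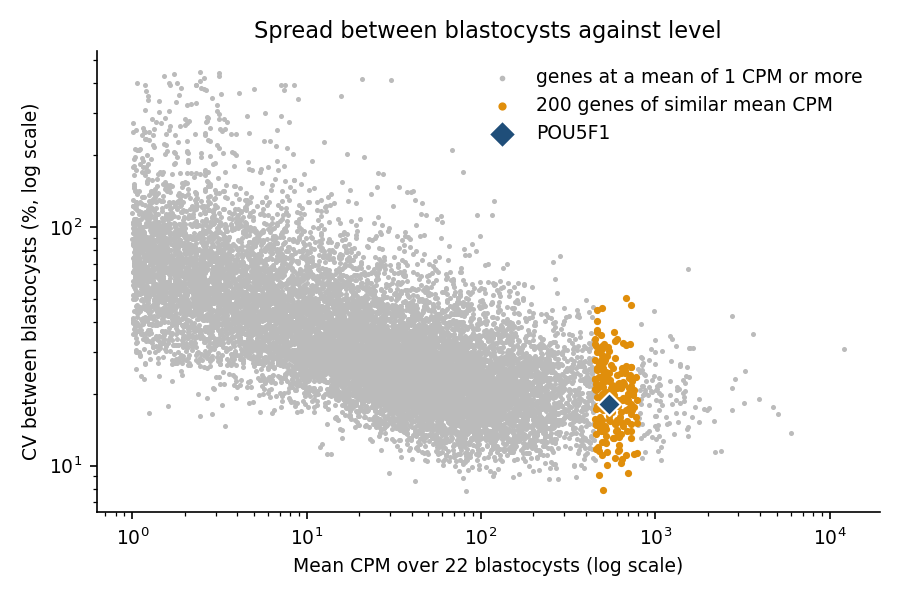
CV between the 22 blastocysts (%, log scale) against mean CPM (log scale) for genes with a mean of at least 1 CPM (grey), the 200 genes nearest in rank to POU5F1 (orange) and POU5F1 (blue diamond). POU5F1, at 540.0 CPM and a CV of 18.05%, lies inside the cloud of the 200 genes, whose median CV is 19.8%.

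The low values of blastocysts 6 and 21 differed in how far other genes shared them. Each gene was set against its own median over the 22 blastocysts. These 2 blastocysts were picked because POU5F1 was lowest in them, so a place below most other genes there follows in part from the choice. The other genes were not each compared in their own extreme blastocysts. In blastocyst 6, POU5F1 was at 0.580 of its median. Of the 200 genes of similar level, 36.0% were lower still relative to their medians. In blastocyst 6, 82 of the 200 had their lowest value of all blastocysts, and 33 had their highest. The 200 genes had a median log2 ratio of -0.25 there, with quartiles of -1.36 and 0.26, so they spread in both directions. In blastocyst 21, POU5F1 was at 0.602 of its median. None of the 200 genes of similar level was as low there relative to its own median. This count of 0 describes these libraries and was not tested. The margin was small by a related measure, the CPM in blastocyst 21 over the mean without blastocysts 6 and 21. By it POU5F1 was at 0.577, and the lowest of the 200 genes was at 0.578. The 200 genes had a median log2 ratio of -0.14 in blastocyst 21 and a 5th percentile of -0.53, beside -0.73 for POU5F1. Of the 200 genes, 11 had their lowest value in this blastocyst, 33 had it among their 2 lowest, and 16 had blastocysts 6 and 21 as their 2 lowest.

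The total count of blastocyst 21, 19160083, was above the median of the libraries, and its mean Spearman correlation with the other libraries was 0.912, within the range of the blastocysts other than 6. Among all 9317 other genes with a mean of at least 10 CPM, 323 (3.47%) were as low as POU5F1 or lower in blastocyst 21 relative to their medians. In blastocyst 6 the same count was 2550 genes (27.4%). At the upper end, POU5F1 in blastocyst 2 was at 1.37 times its median, and 99.0% of the 200 genes of similar level were lower there relative to their medians. In blastocyst 14 it was at 1.26 times its median, and 96.0% of the 200 genes were lower. Across the 9317 genes, 753 (8.08%) were as high as POU5F1 or higher in blastocyst 2, and 1781 (19.1%) in blastocyst 14. Blastocysts 2 and 14 were picked as the highest for POU5F1, so these shares too follow in part from the choice.

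**Figure D3:**
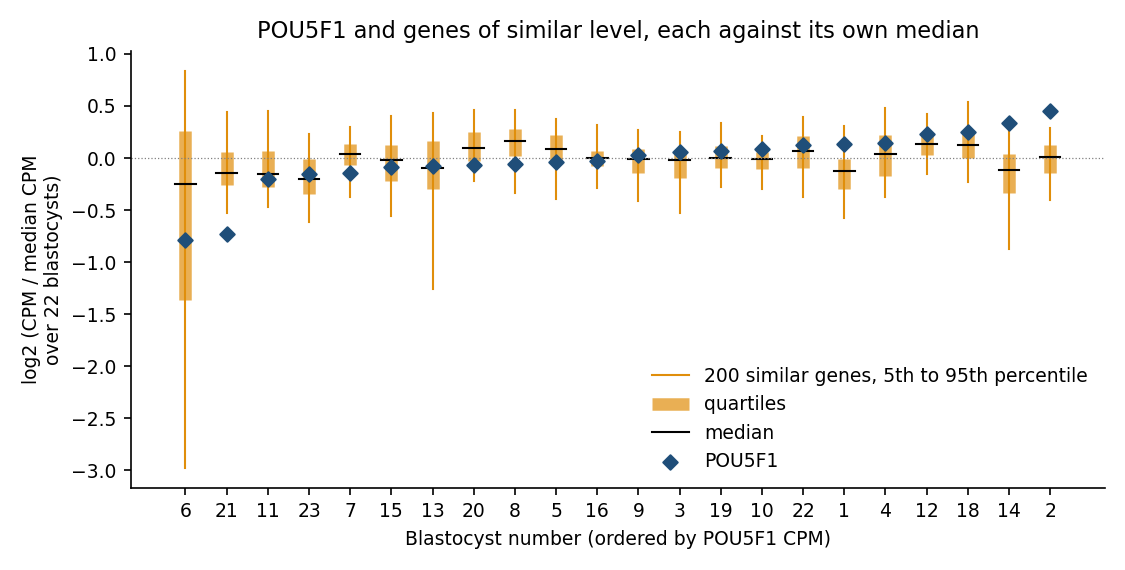
POU5F1 (diamonds) and the 200 genes of similar mean CPM (thin bars, 5th to 95th percentile; thick bars, quartiles; black lines, median) in each blastocyst, as log2 of the CPM over the gene's own median over 22 blastocysts. Blastocyst 6 has the widest bar and POU5F1 lies within it, whereas in blastocyst 21 POU5F1, at -0.73, lies below the 5th percentile of -0.53.

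The level of POU5F1 was next compared with 3 measures of the libraries. With the total count, log2 CPM of POU5F1 had a Pearson correlation of 0.38 (permutation p = 0.096, adjusted p = 0.14, n = 22) and a Spearman correlation of -0.07 (permutation p = 0.77, adjusted p = 0.77). When blastocysts 6 and 7, whose totals were farthest from the median, were left out, the Pearson coefficient turned to -0.11 (permutation p = 0.64, n = 20). Blastocyst 6 had both the lowest total and the lowest POU5F1 level, which goes with a positive coefficient. Blastocyst 7 had the highest total with POU5F1 at 485.6 CPM, below the median, which goes the other way. A Pearson correlation with the total count of at least this size, in either direction, was found for 42.6% of the other 9317 genes with a mean of at least 10 CPM. With the number of genes at 1 CPM or more, which ranged from 12984 to 13942, the Pearson correlation was -0.22 (permutation p = 0.33, adjusted p = 0.33, n = 22) and the Spearman correlation -0.31 (permutation p = 0.17, adjusted p = 0.25). Without blastocysts 1 and 3, the farthest from the median number of genes, the Pearson correlation was -0.36 (permutation p = 0.11, n = 20) and the Spearman correlation -0.47 (permutation p = 0.039, adjusted p = 0.12). Of the 9317 genes, 41.6% had a correlation with this number of at least the same size as POU5F1.

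With the TMM factor, which ranged from 0.948 to 1.07, the Pearson correlation was -0.48 (permutation p = 0.023, adjusted p = 0.069, n = 22) and the Spearman correlation -0.41 (permutation p = 0.057, adjusted p = 0.17). Of the 9317 genes, 14.9% had a correlation of at least this size. The factor divides the CPM, so the measures share a term. Without blastocysts 6 and 23, the farthest from the median factor, the Pearson correlation was -0.31 (permutation p = 0.19, n = 20). None of the 3 relations passed the adjusted threshold of 0.05 with these 22 libraries. The tests were two-sided with 100000 permutations and adjusted by the Benjamini-Hochberg procedure over the 3 relations, separately for each coefficient.

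**Figure D4:**
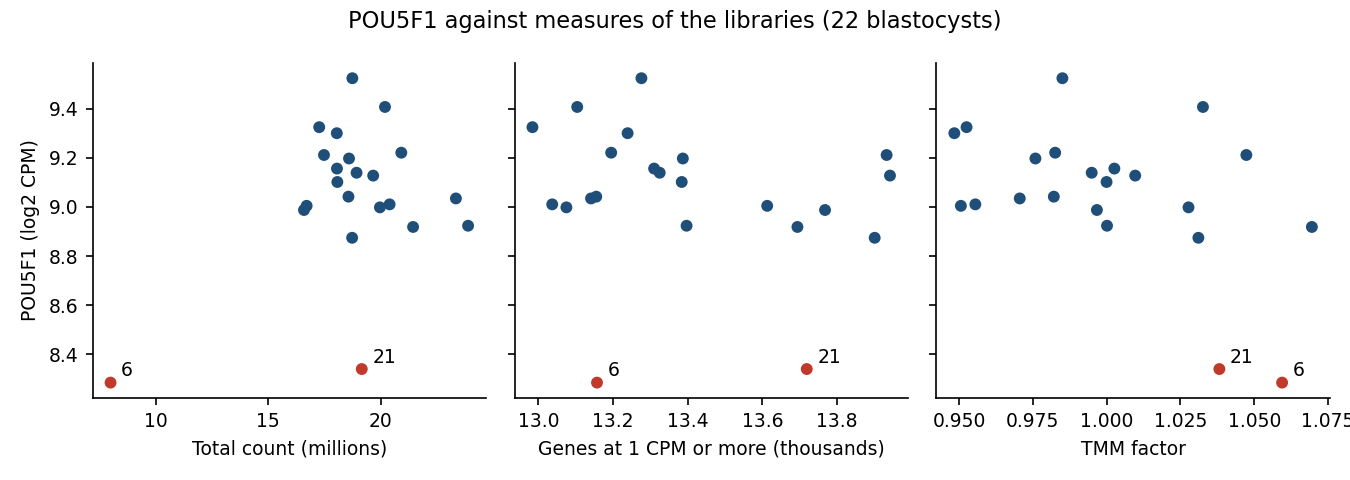
POU5F1 (log2 CPM) against the total count, the number of genes at 1 CPM or more and the TMM factor of the 22 libraries, each point 1 blastocyst, with blastocysts 6 and 21 in red. Blastocyst 6 lies alone at the lowest total count, and blastocyst 21 has a total among those of the other libraries with a similarly low POU5F1 level.

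Last, the genes whose pattern over the 22 blastocysts was most like that of POU5F1 were sought by Spearman correlation of log2 CPM, among 9317 genes with a mean of at least 10 CPM. The correlations had a median of 0.06 and a 5th and 95th percentile of -0.41 and 0.51, and these points share the same 22 libraries, so they are given as a description with no p. The highest belonged to ENSBTAG00000004403, at 0.79. Its level was lowest in blastocyst 6, with 22.2 CPM, and had a median of 40.2 and a maximum of 70.3 CPM. ENSBTAG00000009211 followed at 0.78, with 49.6 CPM in blastocyst 6, 205.2 CPM in blastocyst 21 and its maximum of 338.4 CPM in blastocyst 2, where POU5F1 was highest too.

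The lowest correlation was that of ENSBTAG00000017864, at -0.77. This gene had its maximum of 363.4 CPM in blastocyst 21 and 311.0 CPM in blastocyst 6, against a median of 171.2 CPM. It had 12.6 CPM in blastocyst 14, and its minimum of 9.31 CPM was in blastocyst 13, where POU5F1 had 511.4 CPM, below its median. ENSBTAG00000014858 had a correlation of -0.75, with 33.4 CPM in blastocyst 14 as its minimum and a median of 49.1 CPM. Without blastocysts 6 and 21 these 4 correlations were 0.72, 0.71, -0.70 and -0.75. Because the genes were picked as extremes over libraries that include these 20, those values are no separate check.

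**Figure D5:**
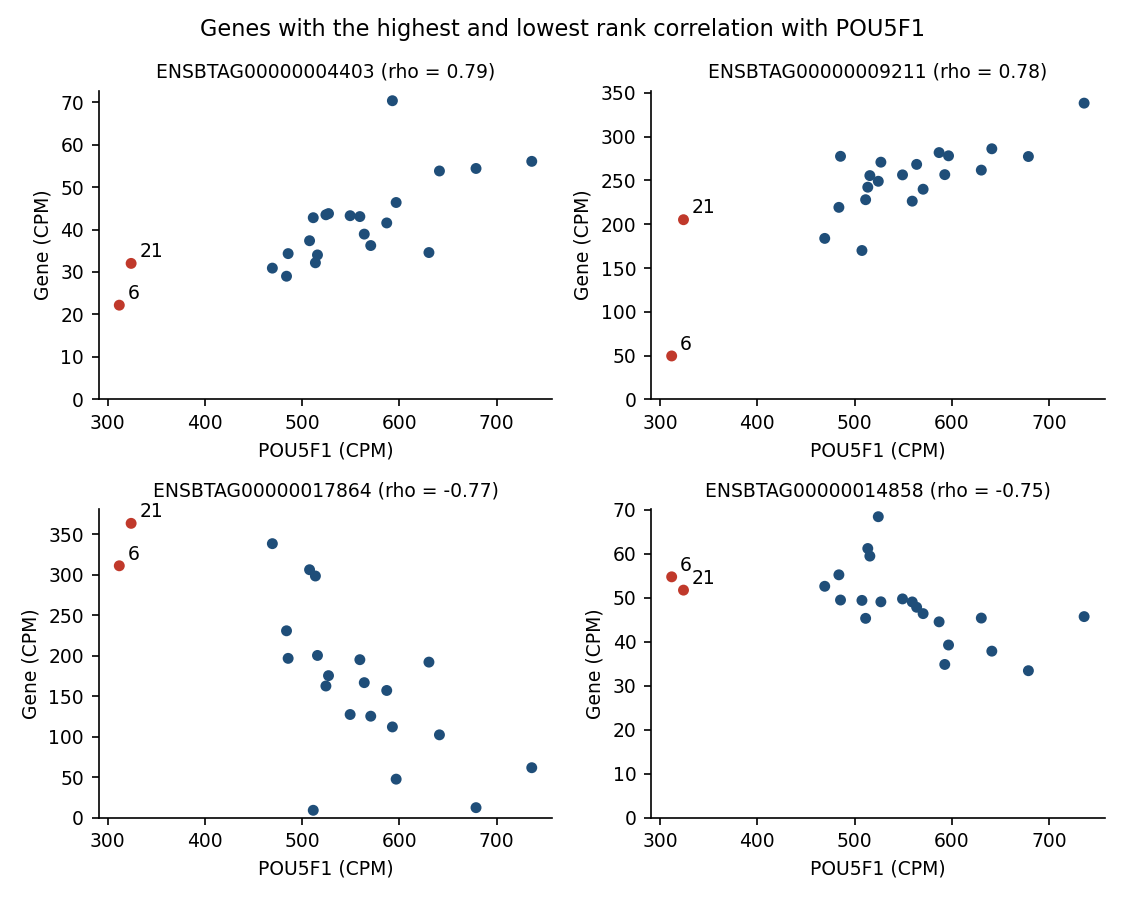
CPM of the 2 genes with the highest and the 2 with the lowest Spearman correlation with POU5F1, against POU5F1 CPM, each point 1 of 22 blastocysts, with blastocysts 6 and 21 in red. The upper panels rise with POU5F1 (0.79 and 0.78) and the lower panels fall (-0.77 and -0.75). By Pearson correlation of log2 CPM the same genes had 0.75, 0.76, -0.50 and -0.52. The panels show genes picked as extremes of 9317.

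The number of genes that went with POU5F1 was near that of other genes of its level. A correlation of 0.5 or more was found with 545 genes (5.85%), and the 200 genes of similar level had a median of 491.5 such genes (5.28%). A correlation of -0.5 or less was found with 189 genes (2.03%), beside a median of 259 (2.78%). In either direction together POU5F1 had 734 such genes, more than 47.0% of the 200 genes. Without blastocysts 6 and 21 the number for POU5F1 was 485, above 19.5% of the 200 genes. The median of the 200 genes was then 819 and their lower quartile 574.25. Of the 200 genes of similar level, 149 had a correlation with POU5F1 above 0 (median 0.18), and over all 9317 genes 57.6% did (median 0.06).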

How the data were processed

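RNA was extracted from 22 single blastocysts, reverse transcribed from an oligo-dT primer with template switching, amplified, tagmented and sequenced as read pairs. The authors aligned the read pairs with HISAT2 2.2.1 to a genome made of ARS-UCD1.2 and a chromosome Y sequence, filtered them, removed duplicates and counted fragments over exons (featureCounts of subread 2.0.1, without strand). The deposited values are raw counts per gene, not normalized. Amplification and removal of duplicates by position can compress highly counted genes.

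CPM were computed over all 27607 rows with TMM factors of edgeR 4.0.16 in R 4.3.3. Log2 CPM used a prior count of 1. Intervals are 95% Clopper-Pearson limits of the count in the total, divided by the TMM factor. Other steps used Python 3.11.15, numpy 2.4.6 and scipy 1.17.1. The CV and the Spearman correlation were also run on simulated counts, with the outcome not given here. The percentile among genes of similar level was not simulated. Each table column was matched to a blastocyst by its title, and the number in the title names the blastocyst. Sex inferred by the study was not used. Genes named were POU5F1, the 2 next above and below it in mean CPM, and the 2 highest and 2 lowest in correlation among genes with a mean of at least 10 CPM. POU5F1 and the measures were chosen with earlier results of these data known. Alternatives used other scaling, filters, depths, comparison sets and libraries. Batches are not named in the labels, so none was tested.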

Additional observations from a re-analysis of the deposited data

How the results depend on the processing

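Leaving out blastocysts 6 and 21 was chosen after seeing the data. Under RLE, upper quartile or no scaling, genes kept by filterByExpr, libraries thinned to the lowest total, and blastocyst 6 left out, the mean of POU5F1 stayed between 538.1 and 549.4 CPM and its rank between 225 and 230. The CV was 15.5% to 17.6%, the log2 SD 0.24 to 0.29, and the percentile of the CV among genes of similar level 24 (upper quartile scaling) to 49.5 (without blastocyst 6), also with 50 or 1000 nearest genes or other measures of spread. Leaving out each blastocyst in turn gave a mean of 530.9 to 549.4 CPM, a CV of 15.5% to 18.5%, a log2 SD of 0.24 to 0.30, a rank of 225 to 234 and a percentile of 30 (without blastocyst 21) to 49.5. Without blastocysts 6 and 21 together, the CV was 12.3%, the log2 SD 0.17 and the percentile 21. The correlation with the total count, 0.38, turned to -0.11 without blastocysts 6 and 7 and to -0.27 without blastocysts 6 and 21, and it passed no threshold in any of these comparisons.

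The list of most like genes depended on the measure. Of the 5 highest and 5 lowest genes by Spearman correlation, 0 were again at the same ends by Pearson correlation, 4 with library size only, 5 without blastocyst 6 and 5 without blastocysts 6 and 21. The Pearson correlations of the 4 genes named were 0.75, 0.76, -0.50 and -0.52. The cause was not tested. A rank per transcript length was not run because no length was paired with the identifiers. No paired analysis was possible because there is only 1 group. Each library held at least 2644 POU5F1 fragments, and the technical spread between libraries of the same blastocyst is unknown.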
